A study of Mus musculus with 2 samples.

Results

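The 5 genes described here are Serpinb1a, Serpinb6a, Serpinb6b, Serpinb9 and Serpinb9b, mouse serpins of clade B that stay inside the cell and inhibit proteases of cytotoxic or myeloid granules. They were chosen by name and matched to the symbols of the deposited gene list, and each matched 1 of its 34290 genes. Serpins are suicide inhibitors: the protease cuts an exposed reactive centre loop, and the serpin then snaps shut and traps it. Cells that load granules with granzymes, the serine proteases delivered to target cells together with the pore former perforin, also make cytosolic serpins against protease that leaks from their own granules. Serpinb9 is the inhibitor of granzyme B, Serpinb9b is reported to inhibit granzyme M, Serpinb6b granzyme A and Serpinb6a cathepsin G, and Serpinb1a inhibits neutrophil elastase, cathepsin G and proteinase 3.

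The data are single-cell RNA counts from tumours grown in mice from MC38, a mouse colorectal cancer line, taken 21 days after engraftment from mice given no treatment. One tumour library came from MC38 cells carrying an empty vector (vector control) and 1 from MC38 cells lacking TMEM16F, the phospholipid scramblase encoded by Ano6 (TMEM16F KO). The number, strain and age of the mice behind each library are not given in the labels, so each group is 1 library, and no test between the groups was possible. The intervals below are 95% intervals of counting error only, and the UMIs of 1 cell are not independent of each other, so the share held by the top cell is given where it is large.

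The part of each gene that sets which protease it meets is the reactive centre loop, and these stretches are shown because the loop is where close relatives differ most. They were read from the GENCODE M21 transcripts on GRCm38, the same build as mm10. All lie in exon 7 of 7, inside the coding sequence, and run from the conserved hinge codons (first lower-case run) through the loop codons (capitals) to the conserved codons after the loop (last lower-case run), 5′ to 3′ on the coding strand.
Serpinb1a (chr13:32842884-32842970, minus strand): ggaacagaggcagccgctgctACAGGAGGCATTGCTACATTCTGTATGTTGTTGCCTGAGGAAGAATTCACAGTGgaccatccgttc
Serpinb6a (chr13:33918107-33918193, minus strand): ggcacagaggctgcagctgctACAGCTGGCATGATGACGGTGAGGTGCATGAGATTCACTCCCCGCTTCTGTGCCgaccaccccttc
Serpinb6b (chr13:32978207-32978287, plus strand): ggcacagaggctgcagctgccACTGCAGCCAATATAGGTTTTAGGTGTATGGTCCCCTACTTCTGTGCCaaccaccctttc
Serpinb9 (chr13:33015699-33015782, plus strand): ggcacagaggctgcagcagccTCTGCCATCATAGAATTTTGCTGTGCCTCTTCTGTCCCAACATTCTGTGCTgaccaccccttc
Serpinb9b (chr13:33039802-33039894, plus strand): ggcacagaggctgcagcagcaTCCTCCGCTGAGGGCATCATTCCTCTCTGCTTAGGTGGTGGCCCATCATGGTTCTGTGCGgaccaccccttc
The loops held 18 codons in Serpinb1a and Serpinb6a, 16 in Serpinb6b, 17 in Serpinb9 and 20 in Serpinb9b. Serpinb6a and Serpinb6b shared 85.7% of aligned coding bases but 61.1% of loop bases. For Serpinb9 and Serpinb9b the values were 85.3% and 50.8%. Serpinb1a shared 57.2% to 57.7% of coding bases with each of the other 4.

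All 5 genes lie on chromosome 13. Serpinb9 (chr13:33003250-33017957) and Serpinb9b (chr13:33027416-33041884) are neighbours 9458 bases apart with no annotated gene between them, and Serpinb6b (chr13:32965209-32979067) ends 24182 bases before Serpinb9. Serpinb1a lies at chr13:32842092-32851185, and Serpinb6a, at chr13:33917918-34002794, is 876033 bases beyond Serpinb9b with 28 genes between. Serpinb6a overlaps 1110046J04Rik, Nqo2 and Ripk1, and Serpinb9b overlaps Gm36099, all on the opposite strand. How the reads of such similar or overlapping genes were shared out was not stated in the labels or file headers, so small values of Serpinb6b beside Serpinb6a, or of Serpinb9b beside Serpinb9, are uncertain.

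The libraries held 5993 barcodes and 49777630 UMIs (TMEM16F KO) and 5253 barcodes and 46338994 UMIs (vector control), and 5688 and 5028 cells were kept, with median depths of 5995 and 6019.5 UMIs. The study states 10782 cells, against 11246 barcodes in the files and 10716 kept, and 10 barcodes occurred in both libraries. Cells were put into classes by marker genes, and a class is called "like" a cell type because it rests on those markers alone. Class sizes, TMEM16F KO first, were 921 and 706 CD8 T-like cells, 78 and 55 CD4 T-like, 210 and 154 Treg-like, 346 and 205 other T-like, 124 and 75 NK-like, 1729 and 1603 macrophage-like, 416 and 332 intermediate phagocyte-like, 788 and 838 monocyte-like, 35 and 28 DC-like, 46 and 52 mature DC-like, 37 and 43 stroma-like and 40 and 17 neutrophil-like. The other T-like cells lacked CD8, Cd4 and Foxp3 UMIs or carried a conflicting mix, such as CD8 with Cd4 or CD8 with Foxp3. A further 628 and 732 cells reached no class (median 1175 and 1012 UMIs), and 274 and 172 carried markers of several lineages. Ano6 stood at 33.3 CPM (summed UMIs of a gene per 1000000 UMIs of the same cells) in TMEM16F KO and 28.7 CPM in vector control over all kept cells. No kept cell carried 3 epithelial markers, and a 3′ tag can lie outside the deleted part, so this does not check the knockout of the engrafted cells.

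Over all kept cells, Serpinb9 gave 3273 UMIs in TMEM16F KO and 1776 in vector control, Serpinb6b 3680 and 2116, Serpinb6a 4301 and 4740, Serpinb9b 791 and 512, and Serpinb1a 559 and 268. In CPM, Serpinb9 was 1.73-fold (95% interval 1.63 to 1.83) higher in TMEM16F KO, Serpinb6b 1.63-fold and Serpinb1a 1.96-fold. Of the 5 members, 3 were thus at least 1.5-fold higher, where 5.46% of the 13891 genes with at least 50 UMIs were, and none was 1.5-fold lower, where 6.72% were. These pooled values mix the level in a class with its share of cells: CD8 T-like cells made up 16.2% of kept cells in TMEM16F KO and 14.0% in vector control. They also include the cells with markers of several lineages. Those cells held 16.0% of the Serpinb9 UMIs in TMEM16F KO and 5.18% in vector control, and 16.8% and 8.32% of the Serpinb6b UMIs.

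**Figure D1:**
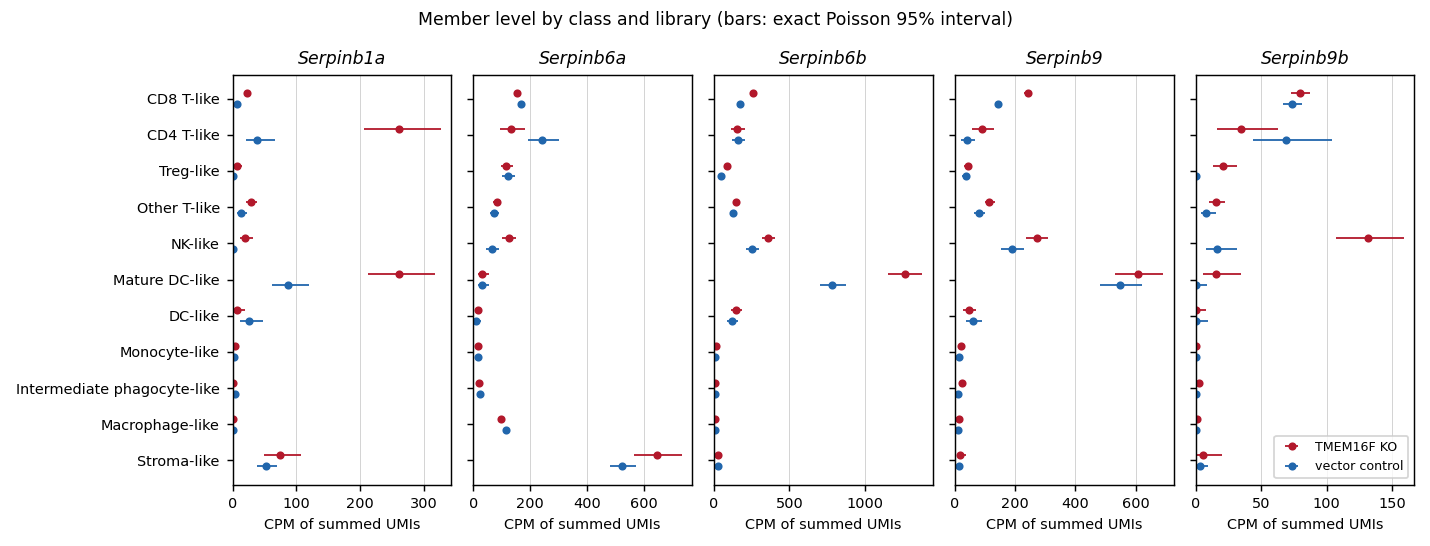
Level of each member (CPM of summed UMIs, horizontal axis, scaled per gene) in 11 marker-defined classes for TMEM16F KO (red) and vector control (blue); bars are exact Poisson 95% intervals. Serpinb6b and Serpinb9 peak in mature DC-like cells, Serpinb6a in stroma-like cells and Serpinb9b in NK-like or CD8 T-like cells.

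Serpinb9, the granzyme B inhibitor, was highest in mature DC-like cells, the migratory dendritic cells marked by Ccr7 and Fscn1, at 608 CPM in TMEM16F KO and 548 CPM in vector control. NK-like cells followed at 271 and 188 CPM, and CD8 T-like cells at 243 and 144 CPM. The intervals of NK-like and CD8 T-like cells overlapped in both libraries, while mature DC-like cells stood clear of both in each library. Other T-like cells held 115 and 80.8 CPM, CD4 T-like 89.3 and 39.1 CPM, Treg-like 42.8 and 35.5 CPM, and the 3 phagocyte classes 9.45 to 23.6 CPM. No UMI was seen in the neutrophil-like cells, 0 of 40 and 0 of 17. A rough limit set at 3 cells would be 7.5% and 17.6% of cells with a UMI, so these few cells leave the level there open.

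In CD8 T-like cells Serpinb9 was 1.68-fold higher in TMEM16F KO (1.54 to 1.84; 1460 against 779 UMIs), and no cell held more than 2.18% of them. With each cell thinned to 2000 UMIs, 30.3% of CD8 T-like cells had a Serpinb9 UMI in TMEM16F KO (27.3% to 33.5%) and 18.3% in vector control (15.4% to 21.5%), so the intervals did not overlap; unthinned, the shares were 52.2% and 42.4%. Macrophage-like cells gave 2.63% and 2.00% after thinning. Their median depths before thinning were 9893 and 10870 UMIs, against 5433 and 6530.5 in CD8 T-like cells. These shares therefore set no upper mark for free RNA in CD8 T-like cells, which was not tested. In NK-like cells the ratio was 1.44 (1.13 to 1.84), but it was 0.926 when classes came from joint clusters. In DC-like and mature DC-like cells together it was 0.954 (0.799 to 1.14), so a 1.5-fold difference in either direction lay outside that interval. This joint ratio mixes mature DC-like cells (608 and 548 CPM) with DC-like cells (46.6 and 59.6 CPM). The mix differed, with 46 and 35 cells in TMEM16F KO and 52 and 28 in vector control. Intermediate phagocyte-like cells held 23.6 and 9.45 CPM, a ratio of 2.50 (1.66 to 3.85), and 14.6% of the 96 TMEM16F KO UMIs lay in 1 cell. In the same class Gzmd was 5.60-fold, Gzmc 4.51-fold and Gzmb 2.33-fold higher, Gzmf was neither (1.39) and Gzma was lower (0.523, 0.292 to 0.917). The part of lymphocyte RNA in this result was not tested.

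Serpinb6b, reported to inhibit granzyme A, had the same 3 classes at the top. Mature DC-like cells held 1266 CPM in TMEM16F KO and 786 CPM in vector control, NK-like cells 358 and 253 CPM, and CD8 T-like cells 256 and 174 CPM. Mature DC-like cells were clear of every other class in both libraries. NK-like cells were clear of CD8 T-like cells in both libraries. CD8 T-like cells were clear of CD4 T-like cells in TMEM16F KO (151 CPM) but overlapped them in vector control (156 CPM). DC-like cells without the mature markers held 144 and 122 CPM, and macrophage-like cells 5.41 and 4.36 CPM.

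The difference between libraries for Serpinb6b in CD8 T-like cells was 1.47-fold (1.36 to 1.60), below the 1.5-fold used to call a difference. It passed that line with each cell weighted alike (1.56), without the top 1% of cells (1.54) and with at most 1 phagocyte marker (1.52). Under the other alternatives it stayed below, from 1.36 with classes from joint clusters to 1.495 with a stricter lead of markers. After thinning, 32.7% of CD8 T-like cells had a Serpinb6b UMI in TMEM16F KO and 21.9% in vector control, with intervals that did not overlap (29.6% to 35.9% and 18.8% to 25.3%), against 0.794% and 0.552% of macrophage-like cells. The ratio was 1.42 in NK-like cells (1.15 to 1.75) and 1.39 in all DC-like cells together (1.22 to 1.59). The joint DC ratio again mixes mature DC-like cells (1266 and 786 CPM) with DC-like cells (144 and 122 CPM), whose shares differed between the libraries. In Treg-like cells the separate ratio follows. In Treg-like cells it was 1.86 (1.31 to 2.69), from 97 and 48 UMIs, and it fell below 1.5 with classes from joint clusters (1.34), a stricter lead of markers (1.33), equal weight for each cell (1.35) and without cycling cells (1.33). Treg-like cells also carried more Gzmc in TMEM16F KO, 741 against 27.6 CPM.

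Serpinb9b, the close relative of Serpinb9, had most of its UMIs in CD8 T-like cells. CD8 T-like cells contributed 60.3% of its UMIs in TMEM16F KO and 77.5% in vector control, at 79.5 and 73.6 CPM, a ratio of 1.08 (0.943 to 1.24). It sat in few cells at high counts: 9.34% and 9.77% of CD8 T-like cells had a UMI, with a mean of 5.55 and 5.75 UMIs in each of them. Serpinb9, in comparison, was found in 52.2% and 42.4% of these cells with 3.04 and 2.61 UMIs each. Macrophage-like cells held 0.884 and 0.491 CPM of Serpinb9b. The few CD4 T-like cells (78 and 55) held 34.4 CPM in TMEM16F KO and 69.2 CPM in vector control, from 10 and 23 UMIs. In vector control their interval overlapped that of CD8 T-like cells.

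NK-like cells held 131 CPM of Serpinb9b in TMEM16F KO and 16.6 CPM in vector control. The counts behind this were 104 UMIs in 9.68% of cells and 9 UMIs in 8% of cells, and positive cells held a mean of 8.67 and 1.5 UMIs. One TMEM16F KO cell held 36.5% of the 104. The ratio of 7.89 (4.0 to 17.7) was 6.53 without the top 1% of cells, 2.81 with each cell weighted alike and 1.78 with classes from joint clusters. In Treg-like cells all 23 UMIs came from 1 TMEM16F KO cell. No UMI was found in the DC-like cells of either library, 0 of 35 and 0 of 28. A rough limit set at 3 cells would be 8.57% and 10.7% of cells with a UMI.

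Serpinb6a, the cathepsin G inhibitor, was found in stroma-like, lymphocyte and macrophage-like classes. Stroma-like cells, marked by collagen genes, were highest at 645 CPM in TMEM16F KO and 525 CPM in vector control, with UMIs in 75.7% and 81.4% of cells whose median depths were 4675 and 19683 UMIs. CD8 T-like cells held 153 and 167 CPM, CD4 T-like 134 and 244 CPM, Treg-like 117 and 122 CPM, NK-like 125 and 64.6 CPM, and macrophage-like 98.8 and 116 CPM. Stroma-like cells were clear of all these classes, and among them the intervals of CD8 T-like, CD4 T-like and NK-like cells overlapped in TMEM16F KO. Monocyte-like cells (16.3 and 15.7 CPM) and intermediate phagocyte-like cells (19.7 and 23.0 CPM) stood several-fold below macrophage-like cells in both libraries.

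The 3 phagocyte classes are ranges of 1 scale, the number of macrophage markers minus the number of monocyte markers seen in a cell, so Serpinb6a was followed along it in thinned cells. In TMEM16F KO it read 11.9 CPM at -1 or less, 14.2 CPM at 0 or 1, 28.7 CPM at 2 or 3 and 129 CPM at 4 or more. In vector control the steps were 12.2, 24.1, 28.7 and 161 CPM. The top step exceeded the lowest 10.8-fold (5.63 to 23.9) and 13.2-fold (6.88 to 29.2). Serpinb9 did not differ beyond counting error along it, with 18.6 and 13.3 CPM at the ends in TMEM16F KO and 10.8 and 10.6 CPM in vector control. Among macrophage-like cells Serpinb6a was higher where Mrc1, the mannose receptor, was seen: 129 against 78.1 CPM in TMEM16F KO (ratio 1.65, 1.32 to 2.07) and 160 against 100.4 CPM in vector control (1.59, 1.28 to 1.97). Cells with and without Mmp12, a macrophage elastase, held 97.6 and 97.8 CPM in TMEM16F KO and 123 and 122 CPM in vector control, so their intervals overlapped. Mrc1 is itself a macrophage marker of the scale above, so its split is not independent of that scale. Mmp12 is not a marker of that scale.

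**Figure D2:**
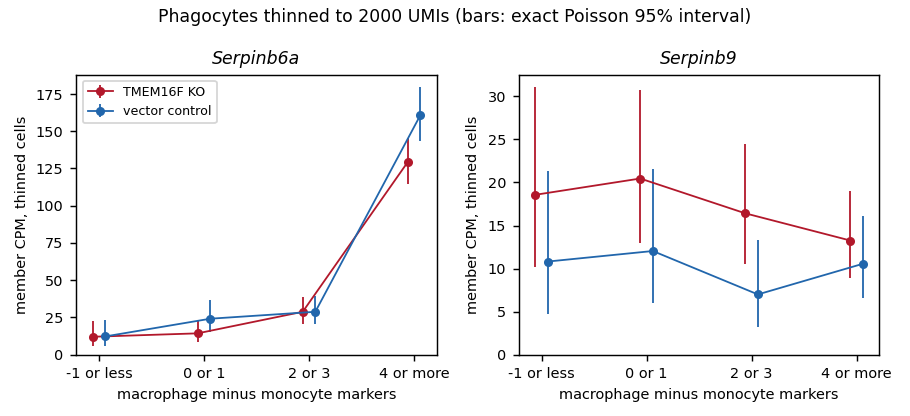
Serpinb6a and Serpinb9 (CPM, vertical axis) in phagocytes thinned to 2000 UMIs, grouped by macrophage markers minus monocyte markers seen in the cell (horizontal axis), for TMEM16F KO (red) and vector control (blue) with exact Poisson 95% intervals. Serpinb6a ends at 129 and 161 CPM in the most macrophage-like cells, while Serpinb9 stays between 7.0 and 20.5 CPM.

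Between libraries Serpinb6a was close to level or lower in the larger classes. Its ratio was 0.918 (0.836 to 1.01) in CD8 T-like cells, 0.952 (0.738 to 1.23) in Treg-like cells and 0.851 (0.80 to 0.906) in macrophage-like cells. The CD8 interval excludes the 1.68-fold seen for Serpinb9 in the same cells. In CD4 T-like cells it was 0.550 (0.366 to 0.816), from 39 and 81 UMIs, and 33.3% of the vector control UMIs lay in 1 cell. In NK-like cells it was 1.93 (1.30 to 2.93), from 99 and 35 UMIs, and 1.40 without cycling cells. Cycling markers summed to 358 CPM in TMEM16F KO and 903 CPM in vector control NK-like cells, and to 158 and 1362 CPM in CD4 T-like cells, where too few cells remained without cycling ones.

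Serpinb1a, an inhibitor of neutrophil proteases, was rare. The mast or basophil-like cells held the most, 1160 and 1738 CPM, but these were 6 and 3 cells with 18 and 12 UMIs. Mature DC-like cells held 261 CPM in TMEM16F KO and 87.5 CPM in vector control, CD4 T-like cells 261 and 39.1 CPM, and stroma-like cells 74.1 and 52.6 CPM. CD8 T-like cells held 22.5 and 7.60 CPM. The neutrophil-like cells, defined by genes such as S100a8 and Cxcr2, gave no Serpinb1a UMI, 0 in 109652 UMIs and 0 in 39162. A rough limit set at 3 UMIs would be 27.4 and 76.6 CPM.

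The Serpinb1a UMIs also sat in few cells. In CD4 T-like cells 17.9% and 7.27% of cells had a UMI, and 1 cell held 32.9% of the 76 UMIs in TMEM16F KO and 38.5% of the 13 in vector control. The ratio was 6.68 (3.68 to 13.1) there and 7.20 without the top 1% of cells. In CD8 T-like cells the ratio was 2.96 (2.07 to 4.31), with 24.4% of the 41 vector control UMIs in 1 cell. In all DC-like cells together it was 2.10 (1.48 to 3.03), and 1.36 with each cell weighted alike, where 37.3% and 35.4% of UMIs lay in 1 cell. That joint ratio mixes mature DC-like cells (261 and 87.5 CPM) with DC-like cells, which read the other way at 6.66 and 25.9 CPM from 3 and 10 UMIs. Other T-like cells gave 2.15 (1.19 to 4.12) from 50 and 15 UMIs, with 46.7% of the 15 in 1 cell, and the ratio was 1.42 with each cell weighted alike and 5.62 without the top 1% of cells. NK-like cells had 16 UMIs in TMEM16F KO and 0 in vector control, at least 3.64-fold higher when vector control is set at a floor of 3 UMIs, and 62.5% of the 16 lay in 1 cell.

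Over the 9 classes that held 50 or more cells per library, 31 member and class pairs had at least 50 UMIs, of which 9 were at least 1.5-fold higher in TMEM16F KO and 1 was at least 1.5-fold lower. In CD8 T-like cells 2 of 5 members were higher (Serpinb1a, Serpinb9), where 4.82% of genes were, and 0 were lower, where 5.38% were. In NK-like cells 2 of 4 were higher (Serpinb6a, Serpinb9b; 11.3% of genes) and 0 lower (4.02%). In CD4 T-like cells 1 of 3 was higher (Serpinb1a; 19.1% of genes) and 1 lower (Serpinb6a; 12.8%), so at this depth such folds were common. Treg-like cells had 1 of 3 higher (Serpinb6b; 6.71% of genes) and 0 lower (5.75%), and other T-like cells 1 of 4 higher (Serpinb1a; 8.06%) and 0 lower (4.55%).

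The myeloid classes held fewer called members. Of 3 tested in macrophage-like cells 0 were higher (6.0% of genes) and 0 lower (5.39%), and of 3 in monocyte-like cells 0 were higher (5.60%) and 0 lower (2.94%). Intermediate phagocyte-like cells had 1 of 3 higher (Serpinb9; 9.17%) and 0 lower (4.15%). All DC-like cells had 1 of 3 higher (Serpinb1a; 5.56%) and 0 lower (5.19%). The median log2 ratio of the tested members was 0.56 in CD8 T-like cells and 0.74 in NK-like cells, beside -0.01 and 0.07 over all genes tested there, and 0.17 in macrophage-like cells beside 0.01.

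**Figure D3:**
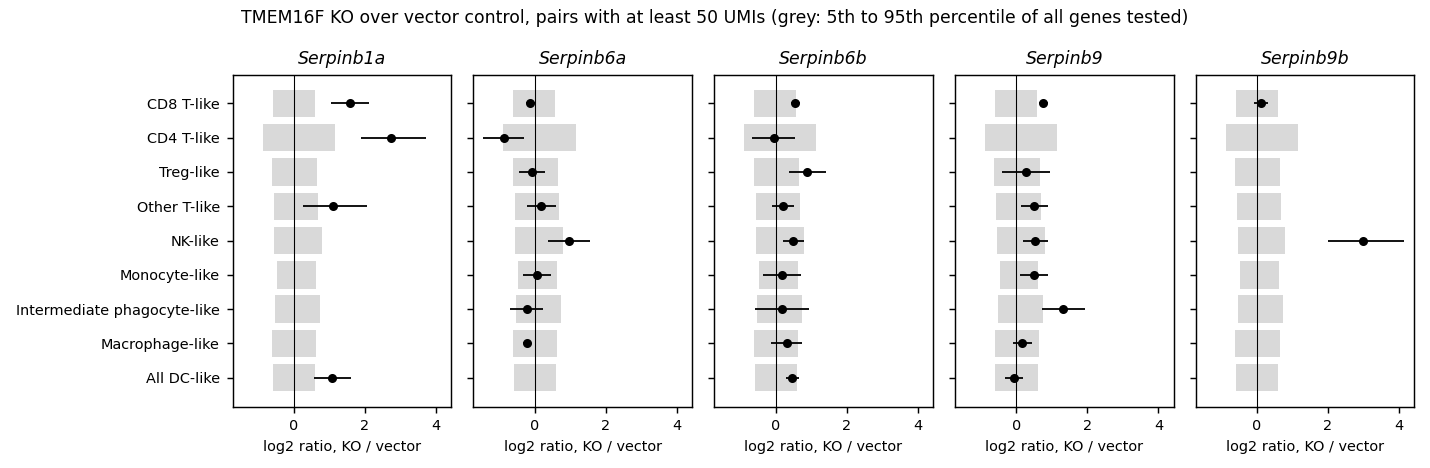
Log2 ratio of TMEM16F KO over vector control for each member (points with 95% intervals of counting error) by class, for pairs with at least 50 UMIs; grey bands span the 5th to 95th percentile of all genes tested in that class. Serpinb9 in CD8 T-like cells and Serpinb9b in NK-like cells lie to the right of the band, and Serpinb6a in CD8 T-like cells lies inside it.

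Markers of mononuclear phagocytes moved with the libraries inside the lymphocyte classes, and their part in the ratios was not tested beyond the values here. Their summed level was higher in TMEM16F KO in all 5 lymphocyte classes, by 1.57-fold (Treg-like) to 2.70-fold (CD4 T-like), with 8 of 8 markers higher in CD8 T-like cells (270.4 against 157 CPM) and 7 of 8 in NK-like cells (203 against 105 CPM). In the 3 phagocyte classes Serpinb9, Serpinb6b, Serpinb9b and Serpinb1a stood at most at 23.6, 9.81, 2.95 and 4.51 CPM, and Serpinb6a at up to 98.8 and 116 CPM, near its levels in lymphocytes. Among lymphocytes with at most 1 phagocyte marker, a restriction chosen after seeing the data, Serpinb9 in CD8 T-like cells was 1.79-fold, Serpinb6a in NK-like cells 2.23-fold and Serpinb9b in NK-like cells 11.4-fold higher in TMEM16F KO. Under the same restriction Serpinb6b in Treg-like cells (1.35) and Serpinb1a in other T-like cells (1.48) no longer reached 1.5-fold.

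The proteases these serpins meet differed between the libraries too. In CD8 T-like cells 12 of 24 listed granule proteases and partners had 50 UMIs: Gzma (454 against 213 CPM), Gzmb (2702 against 1739 CPM) and Gzmk (86.1 against 55.6 CPM) were at least 1.5-fold higher, Gzmg (121 against 394 CPM) and Gzmm (4.50 against 6.86 CPM) lower, and 7 were neither. The ratio of Gzmb, 1.55, was close to the 1.68 of its inhibitor Serpinb9. The same pair read 1.63 and 1.44 in NK-like cells and 1.25 and 1.20 in Treg-like cells. It read 0.995 and 1.42 in other T-like cells and 1.55 and 1.13 in macrophage-like cells. Gzma was 2.13-fold higher in CD8 T-like cells, beside 1.47-fold for Serpinb6b. Whether inhibitor and protease move together between the libraries was not tested. Gzmm, the reported target of Serpinb9b, had 27 and 37 UMIs, and its interval of 0.384 to 1.11 included no difference. In NK-like cells 11 were tested and 7 were higher: Gzmb (2095 against 1285 CPM), Gzmd, Gzme, Gzmf, Gzmg, the perforin gene Prf1 (913 against 552 CPM) and Ctsg, cathepsin G. Gzmc to Gzmg are closely related copies, so their separate values are uncertain. The 60 and 19 Ctsg UMIs of NK-like cells lay in 3 and 2 cells. Elastase (Elane) reached only 9 UMIs in all kept cells and proteinase 3 (Prtn3) 142, so the targets of Serpinb1a were almost unseen. The median log2 ratio of the tested list was 0.34 in CD8 T-like and 0.71 in NK-like cells.

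Within each library the serpins were then compared between cells with more and fewer granzyme UMIs, after thinning to 2000 UMIs. Among CD8 T-like cells of TMEM16F KO, Serpinb9 stood at 160 CPM in the 256 cells with no Gzmb UMI, 243 CPM in 340 cells with 1 to 4, and 324 CPM in 279 cells with 5 or more. In vector control the values were 93.0 CPM in 285 cells, 122 CPM in 229 and 177 CPM in 147. The top group exceeded the Gzmb-free group 2.03-fold (1.55 to 2.66) and 1.90-fold (1.27 to 2.84). Between the libraries, TMEM16F KO was 1.72-fold (1.20 to 2.48), 1.98-fold (1.46 to 2.74) and 1.83-fold (1.34 to 2.55) higher in the 3 groups. Each group spans a range of Gzmb UMIs, and whether Gzmb itself matched between the libraries within a group was not tested. Gzmb UMIs also occurred in 23.1% and 17.7% of unthinned macrophage-like cells, so a single Gzmb UMI does not by itself set a cell apart. The source of these UMIs was not tested. The median depths of these macrophage-like cells were 9893 and 10870 UMIs and their Gzmb levels 37.5 and 24.1 CPM. These shares therefore overstate what cells thinned to 2000 UMIs would show.

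Serpinb6b also rose with Gzmb, from 172 to 296 CPM (1.72-fold, 1.32 to 2.25) in TMEM16F KO and from 133 to 197 CPM (1.48-fold, 1.03 to 2.11) in vector control. Serpinb6a rose less, 1.46-fold (1.07 to 2.00) and 1.21-fold (0.842 to 1.74). Serpinb9b followed Gzmc and perforin more than Gzmb. Cells with 5 or more Gzmc UMIs (56 in each library) held 339 CPM of Serpinb9b in TMEM16F KO and 232 CPM in vector control, against 30.5 and 29.6 CPM in cells with none, an 11.1-fold (6.99 to 17.6) and 7.83-fold (4.47 to 13.6) difference. Cells with a Prf1 UMI held 106 and 93.6 CPM, against 20.8 and 17.8 CPM without. Serpinb9 differed from this pattern in TMEM16F KO, with 223 CPM in cells with 5 or more Gzmc UMIs and 248 CPM in cells with none, while in vector control it read 205 and 102 CPM. The difference between libraries in Serpinb9 was 2.42-fold (1.95 to 3.04) in cells without Gzmc and 1.09-fold (0.592 to 2.00) in cells with 5 or more.

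**Figure D4:**
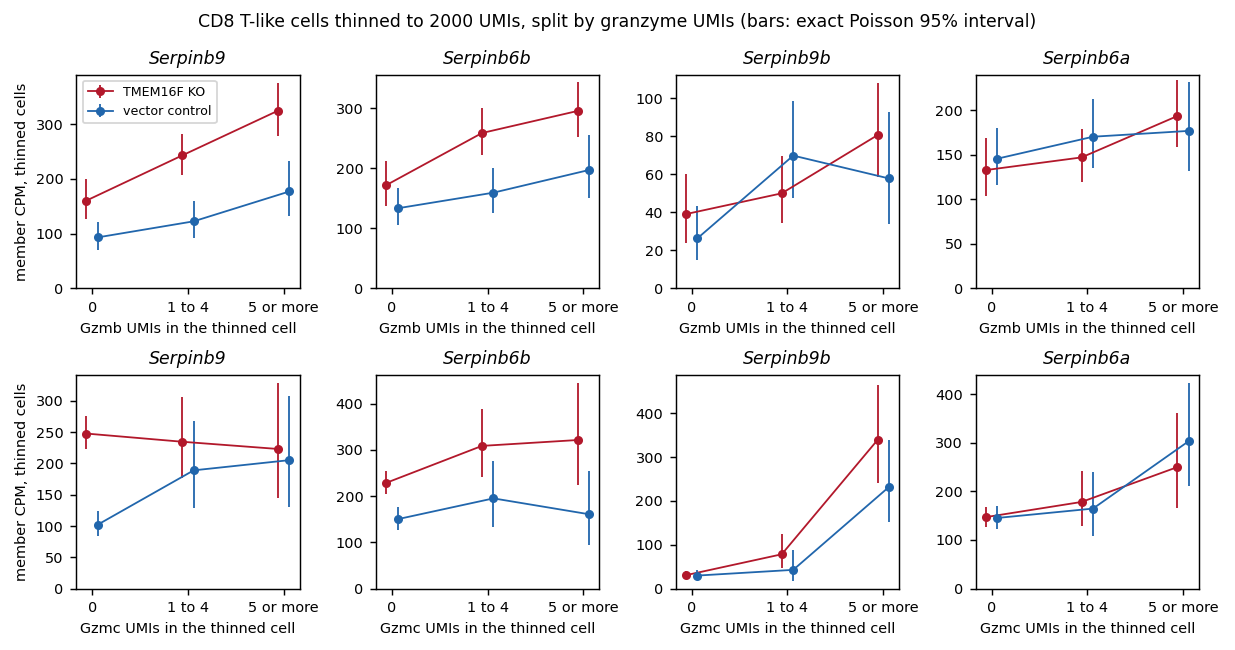
Level of 4 members (CPM, vertical axis) in CD8 T-like cells thinned to 2000 UMIs, grouped by Gzmb UMIs (top row) or Gzmc UMIs (bottom row) in the thinned cell, for TMEM16F KO (red) and vector control (blue) with exact Poisson 95% intervals. Serpinb9 climbs with Gzmb in both libraries to 324 and 177 CPM, and Serpinb9b climbs with Gzmc to 339 and 232 CPM.

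In NK-like cells the groups were small. Those with 5 or more Gzma UMIs held 427 CPM of Serpinb6b in TMEM16F KO (62 cells) against 162 CPM in cells with none (37 cells), a 2.64-fold difference (1.39 to 5.42). In vector control the same groups read 328 and 333 CPM (32 and 27 cells), 0.984-fold (0.499 to 1.96), so the groups differed beyond counting error in TMEM16F KO and not in vector control, and the difference between the libraries was not tested. Serpinb9 stood at 363 and 216 CPM in these groups of TMEM16F KO and at 422 and 18.5 CPM in vector control, the last from 1 UMI. By Gzmb UMIs (5 or more against none), Serpinb9 in TMEM16F KO read 296 and 306 CPM, 0.968-fold (0.493 to 1.83). Serpinb6b read 389 and 214 CPM there (1.81-fold, 0.943 to 3.49). By Gzmc UMIs, Serpinb6b was lower in the top group of TMEM16F KO, 172 against 405 CPM (0.424-fold, 0.201 to 0.814). In vector control it was level (1.03-fold, 0.482 to 2.11). Serpinb9b was higher with Gzmc in TMEM16F KO, 93.8 against 13.5 CPM (6.94-fold, 1.24 to 70.3).

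Cells differed in how many members they showed. After thinning, 36.7% of CD8 T-like cells in TMEM16F KO had no member UMI, 37.7% had UMIs of 1 member, 19.5% of 2 and 5.60% of 3, against 47.2%, 36.0%, 13.9% and 2.42% in vector control. Serpinb6b was seen in 44.5% (38.4% to 50.7%) of TMEM16F KO CD8 T-like cells with Serpinb9 and in 27.5% (24.0% to 31.3%) of those without it. In vector control the shares were 27.3% (19.6% to 36.1%) and 20.7% (17.4% to 24.4%), with overlapping intervals. In NK-like cells of TMEM16F KO the shares were 38.8% and 40.3%, with no difference beyond the intervals.

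Of 19 other clade B serpins listed, 5 reached 50 UMIs over both libraries: Serpinb8 (255), Serpinb2 (153), Serpinb1b (144), Serpinb12 (87) and Serpinb10 (78). The other 14 gave 0 to 5. Over all kept cells none of the 5 was 1.5-fold higher or lower, and their median log2 ratio was 0.11. In monocyte-like cells Serpinb2 read 3.74 CPM in TMEM16F KO and 6.02 CPM in vector control (24 and 43 UMIs), a ratio of 0.620 whose interval of 0.360 to 1.05 included no difference. It pointed the other way in macrophage-like cells (28 and 16 UMIs) and in intermediate phagocyte-like cells, with 34 UMIs in 3 cells against 0, both under 50 UMIs. In monocyte-like cells Serpinb10, known from bone marrow cells, read 4.67 and 4.2 CPM. Serpinb8 was spread over macrophage-like (3.33 and 3.0 CPM) and monocyte-like cells (5.14 and 5.74 CPM).

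Patterns across the 17 sums of a class and a library with at least 50 cells were compared by Pearson r of log2(CPM + 1), as a description, since the sums of 1 library share it and 8 of the classes enter with both libraries (mature DC-like cells from vector control only). Serpinb6b and Serpinb9 tracked each other at r = 0.95, while Serpinb9b reached 0.64 with Serpinb6b and 0.56 with Serpinb9, and Serpinb6a 0.33 with Serpinb9. The 3 genes outside the family closest to Serpinb9 among 9035 were Epsti1 (0.95), Sub1 (0.95) and Selplg (0.93). For Serpinb6b they were Stat4 (0.98), Nabp1 (0.96) and Rras2 (0.96), for Serpinb9b Serpine2 (0.96), Nrgn (0.93) and Nsmaf (0.93), for Serpinb6a Aspm (0.87), Rida (0.86) and Pld3 (0.86), and for Serpinb1a Pip4k2a (0.93), Dnm1l (0.87) and Fyttd1 (0.87).

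The promoters of the neighbours Serpinb9 and Serpinb9b are shown because these genes differ in pattern. RefSeq promoter windows (GRCm38.p6, 250 bases before to 50 after the start site) were found for 4 of 5 members. The stretch around a match to the spaced repeat GAAANNGAAA on either strand, a form bound by interferon regulatory factors and searched after the Serpinb9 promoter had been read, is printed with the match in capitals, above the stretch that aligns with it in Serpinb9b.
Serpinb9 (chr13:33004470-33004520, plus strand): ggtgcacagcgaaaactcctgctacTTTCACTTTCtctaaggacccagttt
Serpinb9b (chr13:33027339-33027393, plus strand): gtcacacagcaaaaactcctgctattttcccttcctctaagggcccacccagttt
The 2 stretches were identical at 44 of 55 aligned columns, and the whole windows at 57.4%. The Serpinb9 match begins 46 bases before the start site. One of the 2 Serpinb6a windows also held a match, 84 bases before the start site, and the Serpinb6b and Serpinb9b windows held none. Of 32851 promoter windows, 1131 (3.44%) held the letters.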

How the data were processed

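Gene by cell UMI counts (10x 3′ v3.1 chemistry per the labels) were deposited by the authors as Cell Ranger 8.0.0 output per the file headers. The submitters' processing notes name mm10 and Seurat 3.1.1. Barcodes needed 200 detected genes and a mitochondrial share below 20%. Scrublet's own threshold marked 0 barcodes and so had not worked, and the 287 (TMEM16F KO) and 221 (vector control) highest scores, 0.8% per 1000 barcodes, were left out instead. A cell joined a lineage with at least 3 distinct markers. Where several lineages reached 3 markers, it also needed a lead of 2 over the next, and 601 cells lay near that line. No lead was needed where only phagocytes and DCs, or only phagocytes and neutrophils, reached 3 markers. There the larger count decided, and ties went to the DC or neutrophil side. Macrophage-like cells had at least 3 more macrophage than monocyte markers, monocyte-like cells at most 1 more. These thresholds, and the joint DC class, were set after the data were seen. UMIs were summed per class and library and divided by all UMIs (CPM). Intervals are exact Poisson, conditional binomial or Clopper-Pearson. Limits given where no UMI was seen are instead set at 3 UMIs or 3 cells. The depth of shares was equalised by thinning to 2000 UMIs, leaving out 830 and 1029 shallower cells. A member was called at 1.5-fold with 50 UMIs in both libraries together. Genes named are the members, 2 lists (other clade B serpins, granule proteases) where they passed those limits or are a member's target, and the 3 most similar genes. Ratio calls were tested on simulated independent Poisson counts per gene, for genes with more UMIs than the minimum used here. UMIs clumped in single cells were not simulated, so this does not cover members whose UMIs sit in few cells. The members and lists were chosen with earlier results of these data known. Tools were Python 3.11.15, scanpy 1.11.5, scipy 1.17.1 and Biopython 1.88.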

Additional observations from a re-analysis of the deposited data

Results flagged for a closer look

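Serpinb6a pointed in opposite directions in 2 lymphocyte classes, 1.93-fold of the vector control level in NK-like cells and 0.550 of it in CD4 T-like cells, and the difference between the classes was not tested. Both rest on few cells, as given above.

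The cells set aside for carrying markers of several lineages entered no class comparison but count among all kept cells. In them Serpinb9 was 4.22-fold higher in TMEM16F KO (3.38 to 5.33, 525 against 92 UMIs). Serpinb6b was 2.59-fold (2.19 to 3.08, 617 against 176 UMIs) and Serpinb9b 1.65-fold higher (1.16 to 2.35, 109 against 49 UMIs). These cells held 16.0% (TMEM16F KO) and 5.18% (vector control) of all Serpinb9 UMIs. For Serpinb6a the shares were 13.0% and 12.5%, and for Serpinb1a 10.4% and 11.6%. The share of all genes that were as much higher in these cells is not given. T cell markers in these cells summed to 2484 CPM in TMEM16F KO and 1247 CPM in vector control, and the part of this in the member differences was not tested. Among cells that reached no class, Serpinb6b was 2.04-fold higher (1.41 to 3.0; 93 against 44 UMIs).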

How the results depend on the processing

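The count of member and class pairs at least 1.5-fold higher in TMEM16F KO, 9 of 31, was 6 to 12 under the planned and added alternatives, except 15 of 39 pairs with a minimum of 20 UMIs. The number of pairs changed too, with 6 of 21 for classes from joint clusters and 12 of 28 without the top 1% of cells. The share of all genes past the same fold is not given for these alternatives, so these counts stand without a background. The count of lower pairs, 1 in the reported analysis, was 0 with classes from joint clusters, with cells of at least 2000 UMIs, with lymphocytes of at most 1 phagocyte marker, without cycling cells and at a fold of 2, since no CD4 T-like class of 50 cells per library remained or the fold was missed. It was 2 without doublet removal, with each cell weighted alike and at 20 UMIs. No called ratio changed direction under any of these alternatives. Serpinb9 in CD8 T-like cells ranged from 1.63 to 1.91, and Serpinb9b in NK-like cells from 1.78 to 11.4. Thinned to 1000 UMIs, 18.8% and 10.7% of CD8 T-like cells had a Serpinb9 UMI. No paired analysis was possible because each group is 1 library. Serpinb1a and Serpinb9b rest on UMIs in few cells. The restrictions on phagocyte markers and cycling cells were chosen after seeing the data.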
